A study of Mus musculus with 3 samples.

Results

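The 5 Serpina1 paralogs of the mouse, Serpina1a, Serpina1b, Serpina1c, Serpina1d and Serpina1e, were followed across nucleus classes in single-nuclei RNA sequencing (sNuc-Seq) of the liver. They were found by gene symbol and were 5 of 32285 genes in the deposited count tables. The set was chosen because Serpina1e nearly vanished in the STZ-HFHC libraries. Its difference between STZ-HFHC and ND is therefore a description, and no test was run on it.

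Serpina1 genes encode alpha-1-antitrypsin, a serine protease inhibitor that hepatocytes make and secrete in large amounts into the blood. The inhibitor offers an exposed stretch of its chain, the reactive centre loop, as bait to neutrophil elastase and related proteases, and it traps the enzyme once the loop is cut. Humans have a single SERPINA1 gene, whereas the mouse gene was copied several times, and the copies differ most in the loop that sets which protease is caught.

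The ND group was 1 male C57BL/6J mouse on a normal diet without streptozocin (STZ), a toxin of insulin-producing islet cells. The STZ-HFHC group was 2 male C57BL/6J mice that received 0.2 mg STZ under the skin at 3 days of age. From 4 weeks of age they ate a Western diet rich in fat and cholesterol (HFHC), of which 41 kcal% was fat and 43 kcal% carbohydrate, as a model of steatohepatitis with fibrosis. The age at which these livers were taken was not given in the sources used here. STZ and diet were always given together, so their parts cannot be told apart. The label codes of the ND library and of both STZ-HFHC libraries also differ in a way the labels do not explain, so condition and any shared handling cannot be told apart.

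The 5 paralogs lie on the minus strand of chromosome 12 within 230.82 kb (GRCm38, the assembly behind mm10), from 103728156 to 103958975. In the GENCODE M21 annotation, Serpina1b spans 103728156 to 103830373, Serpina1d 103763594 to 103773592, Serpina1a 103853589 to 103863562, Serpina1c 103894926 to 103904887 and Serpina1e 103946931 to 103958975. The 9999 bases of Serpina1d lie wholly inside the gene model of Serpina1b on the same strand, so intronic reads of these 2 genes could be split between them by the counting, and their separate values are uncertain to that extent. The antisense gene B430119L08Rik lies inside Serpina1c, and the strand setting of the counting was not given in the sources used here.

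The promoters are shown because all 5 members were lower in STZ-HFHC. RefSeq promoter windows of GRCm38.p6, from 250 bases before to 50 bases after the annotated start, matched 5 of 5 members. Between pairs of members they were 91.4% to 97.6% identical over aligned stretches of 239 to 300 bases. Pairs with Serpina1e were aligned over 239 to 250 bases, so the others were compared over longer stretches. The 116 bases below lie upstream of the RefSeq start of every member. GENCODE M21 sets the starts of Serpina1b and Serpina1e further upstream, at 103830373 and 103958975, so that their stretches lie inside the GENCODE gene models given above. All 5 are written 5′ to 3′ on the minus strand, and the capitals mark the 10 positions at which the 5 members are not all alike.
Serpina1a, chr12:103863625-103863740: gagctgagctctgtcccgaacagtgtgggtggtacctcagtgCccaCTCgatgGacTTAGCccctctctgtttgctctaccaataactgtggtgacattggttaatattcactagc
Serpina1b, chr12:103738200-103738315: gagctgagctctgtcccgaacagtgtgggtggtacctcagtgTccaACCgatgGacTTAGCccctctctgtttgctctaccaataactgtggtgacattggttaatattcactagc
Serpina1c, chr12:103904962-103905077: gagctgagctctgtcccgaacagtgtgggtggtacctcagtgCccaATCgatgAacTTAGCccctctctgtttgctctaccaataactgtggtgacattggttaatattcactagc
Serpina1d, chr12:103773634-103773749: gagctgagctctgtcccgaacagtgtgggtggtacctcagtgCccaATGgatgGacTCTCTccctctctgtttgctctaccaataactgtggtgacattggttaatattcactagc
Serpina1e, chr12:103956960-103957075: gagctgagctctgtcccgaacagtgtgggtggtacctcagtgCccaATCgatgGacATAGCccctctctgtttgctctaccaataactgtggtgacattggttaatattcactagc

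Over these 116 bases Serpina1e differed from Serpina1a at 2 positions, from Serpina1b at 3, from Serpina1c at 2 and from Serpina1d at 6. Motifs were searched on both strands of the whole windows. TTCNNNGAA, the motif of STAT5 and related factors, had 0 matches in the 5 windows and was present in 8.30% of 32851 RefSeq promoter windows. TTNNGCAA, a C/EBP motif, had 1 match in Serpina1a, Serpina1b, Serpina1d and Serpina1e and 0 in Serpina1c, and was present in 10.8% of all windows. The motif search did not set Serpina1e apart from Serpina1a, Serpina1b and Serpina1d, and an absent match says only that these letters are not in these windows.

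The stretch that encodes the reactive centre loop is shown because it is where the paralogs are told apart. It was taken from GENCODE M21 transcripts, lies in the coding part of the last exon and holds 81 bases. Capitals mark the 18 positions at which the 5 members are not all alike.
Serpina1a, chr12:103853750-103853830: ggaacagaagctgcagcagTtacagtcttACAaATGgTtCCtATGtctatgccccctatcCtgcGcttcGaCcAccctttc
Serpina1b, chr12:103728317-103728397: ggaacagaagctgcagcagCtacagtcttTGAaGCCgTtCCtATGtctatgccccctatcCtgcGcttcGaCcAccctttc
Serpina1c, chr12:103895087-103895167: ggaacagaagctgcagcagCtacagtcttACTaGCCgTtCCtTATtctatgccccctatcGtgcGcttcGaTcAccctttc
Serpina1d, chr12:103763755-103763835: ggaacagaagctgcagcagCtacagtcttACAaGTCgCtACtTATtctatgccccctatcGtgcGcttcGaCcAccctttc
Serpina1e, chr12:103947093-103947173: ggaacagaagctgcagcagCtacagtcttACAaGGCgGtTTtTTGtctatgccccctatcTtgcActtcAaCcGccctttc

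Serpina1e differed from the other 4 members at 10 to 12 of these 81 bases, whereas the other 4 differed among themselves at 5 to 10. Over the whole coding sequence, pairs of members were 91.4% to 96.7% identical, with gaps counted as differences. The annotated coding sequence of Serpina1a is longer, at 1308 bases against 1239 for the others. Pairs with Serpina1a, at 91.4% to 93.3%, are therefore lowered by gaps, and the other pairs were at 96.3% to 96.7%. Some of the 91-base windows of each transcript were found in transcripts of no other annotated gene. Their share was 47.5% for Serpina1a, 77.9% for Serpina1b, 38.9% for Serpina1c, 68.0% for Serpina1d and 83.5% for Serpina1e. In the last 400 bases, where 3′ libraries start, the share was 82.9% for Serpina1a, 95.5% for Serpina1b, 91.9% for Serpina1c, 90.6% for Serpina1d and 100% for Serpina1e. Serpina1e thus had the largest share of its own by both measures. Serpina1c had the smallest over the whole transcript and Serpina1a the smallest in the last 400 bases. Introns were not compared, and the read length was not given in the sources used here.

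The libraries of ND, STZ-HFHC 1 and STZ-HFHC 2 held 9424, 9923 and 11642 barcodes, with 72934861 to 77617520 unique molecular identifiers (UMIs) each. After limits on genes and mitochondrial counts, 8494, 8921 and 10921 nuclei were kept, with medians of 4068, 3015 and 4027 UMIs. Pairs of libraries shared 20 to 27 cell barcodes, at most 0.303% of a library. Xist had a counts-per-million (CPM) level under 1 and the Y-linked Ddx3y between 142 and 168 CPM in each library, which goes with the male sex given. Nuclei were clustered and named by marker lists, which gave 4566, 2338 and 3084 hepatocyte-like nuclei. These came from clusters 2 and 8 and a few nuclei of cluster 23 in ND, but almost all from clusters 1, 10 and 16 in STZ-HFHC, so the class was made of different clusters in the 2 groups. Their median depth was 4090 UMIs in ND and 7515.5 and 6489 in STZ-HFHC. A cluster of 2375 nuclei found only in STZ-HFHC (cluster 4) was left unnamed, because Themis, a T cell gene, was among its top genes.

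All 5 paralogs were lower in the hepatocyte-like nuclei of both STZ-HFHC mice than in the ND mouse. The difference was far larger for Serpina1e than for the other 4, which were lower by 2.32-fold to 4.08-fold. Levels below are summed UMIs of a gene in CPM of the class, ratios carry 95% exact intervals, and such intervals cover counting error only, not the spread between mice.

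Serpina1e was counted 2688 times in the ND mouse, 4 times in STZ-HFHC 1 and 48 times in STZ-HFHC 2. These corresponded to 123 CPM (95% interval, 118 to 127), 0.202 CPM (0.0551 to 0.517) and 2.12 CPM (1.56 to 2.80). Both STZ-HFHC libraries lay far below ND, and they also lay apart from each other. The ND level was 607-fold (237 to 2229.5) the level of STZ-HFHC 1 and 58.0-fold (43.6 to 78.8) that of STZ-HFHC 2. The log2 ratio to ND was -9.08 and -5.84, with a mean of -7.46 ± 2.29 (SD, n = 2 mice).

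Serpina1a had 4123, 1046 and 1367 UMIs in ND, STZ-HFHC 1 and STZ-HFHC 2, or 188, 52.8 and 60.2 CPM. The ND level was 3.56-fold (3.33 to 3.81) and 3.12-fold (2.94 to 3.32) those of the STZ-HFHC mice, which differed little from each other.
Serpina1b had 3968, 1377 and 1571 UMIs, or 181, 69.6 and 69.2 CPM. This member had the smallest mean difference of the 5, with ND at 2.60-fold (2.45 to 2.77) and 2.62-fold (2.47 to 2.77), and the levels of both STZ-HFHC mice were almost the same.
Serpina1c had 4924, 1091 and 2195 UMIs, or 225, 55.1 and 96.7 CPM. Here the STZ-HFHC mice stood apart, with ND at 4.08-fold (3.82 to 4.36) the first and 2.32-fold (2.21 to 2.44) the second.
Serpina1d had 1062, 299 and 344 UMIs, or 48.5, 15.1 and 15.2 CPM. The ND level was 3.21-fold (2.82 to 3.66) and 3.20-fold (2.83 to 3.62) those of the STZ-HFHC mice.

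The 5 members summed to 765, 193 and 243 CPM in the same order, and their mean log2 ratio was -1.82 ± 0.24 (SD, n = 2). Without Serpina1e, the mean log2 ratio was -1.57 ± 0.23. With 1 ND mouse, the spread between ND mice is unknown, and these differences have no replicate check on that side.

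**Figure D1:**
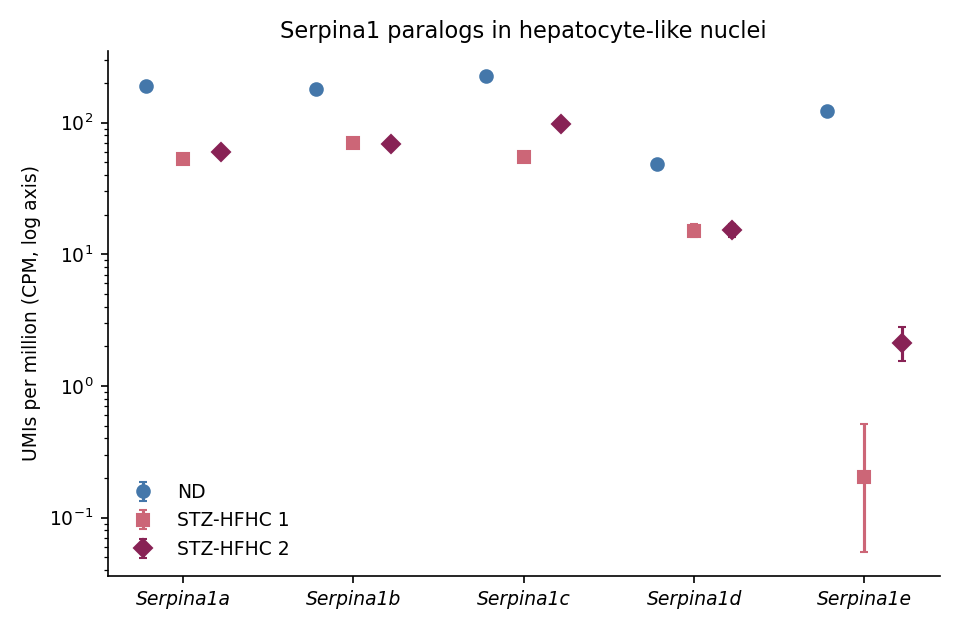
Level of each Serpina1 paralog in hepatocyte-like nuclei (y axis, CPM of the class, log axis) in ND, STZ-HFHC 1 and STZ-HFHC 2, 1 mouse each, with 95% exact Poisson intervals that are mostly smaller than the symbols. Serpina1e lies at 123 CPM in ND and at 0.202 and 2.12 CPM in STZ-HFHC, while the other 4 members lie closer together.

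Against the whole table, 14224 genes had at least 50 UMIs in hepatocyte-like nuclei. Of these, 682 (4.79%) had a log2 ratio of -1 or lower in both STZ-HFHC mice and 1157 (8.13%) had a log2 ratio of 1 or higher in both. With median-of-ratios scaling the split was 877 lower and 973 higher, as this scaling moved the median log2 ratio of all genes from 0.09 to -0.03. All 5 members were among the lower genes under either scaling. Serpina1e was chosen on this contrast and the others came in as its paralogs, with earlier results known. Nothing is therefore read from this count. At a log2 ratio of -2 or lower in both mice, 92 genes (0.647%) were called, against 339 (2.38%) at 2 or higher, and 1 of the 5 members, Serpina1e, was among the lower ones. Serpina1c passed that limit in STZ-HFHC 1 alone, at -2.03 and -1.22. By mean log2 ratio Serpina1e and Pitx3, a homeobox gene with 455, 0 and 12 UMIs, were the lowest genes of the table, both at -7.46. The value of Pitx3 rests on the count added to its 0, so no order between them is read. Serpina1a stood at rank 347, Serpina1d at 395, Serpina1c at 439 and Serpina1b at 655 from the lowest.

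The same rule was read over all kept nuclei, where no class enters, and over the nuclei led by mitochondrial genes. Over all nuclei, 16829 genes were tested, 4.74% were lower and 13.6% higher at a log2 ratio of 1, and all 5 members were lower. At a log2 ratio of 2 these shares were 0.582% and 3.67%, and 1 member, Serpina1e, was lower in both mice. In mitochondrial-led nuclei, 10534 genes were tested, 2.72% were lower and 11.1% higher, and 4 of the 5 members were lower. The exception was Serpina1b, at -0.97 and -1.20. At a log2 ratio of 2 the shares there were 0.418% and 3.5%, and again Serpina1e alone of the members was lower. Nothing is read from these counts about the members, as the set was chosen for Serpina1e on this contrast.

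The split of Serpina1 UMIs among the paralogs also differed between libraries. UMIs are not scaled to transcript length, so the shares compare libraries, not genes. In hepatocyte-like nuclei Serpina1e made up 16.0% (95% exact binomial interval, 15.5% to 16.6%) of the family's UMIs in ND, against 0.105% (0.0286% to 0.268%) for STZ-HFHC 1 and 0.869% (0.641% to 1.15%) for STZ-HFHC 2. The share of Serpina1b was 23.7%, 36.1% and 28.4% in the same order. The share of Serpina1c was 29.4%, 28.6% and 39.7%, that of Serpina1a 24.6%, 27.4% and 24.7%, and that of Serpina1d 6.33%, 7.83% and 6.23%.

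Between the STZ-HFHC mice, the level in the second mouse was 10.5-fold (3.83 to 40.0) that in the first for Serpina1e and 1.75-fold (1.63 to 1.89) for Serpina1c. The same ratio was 1.14 (1.05 to 1.24) for Serpina1a, 0.995 (0.925 to 1.07) for Serpina1b and 1.00 (0.857 to 1.18) for Serpina1d. Serpina1e and Serpina1c thus differed most between mice of the same group, and for Serpina1b and Serpina1d the interval of the ratio included 1. In all kept nuclei, where no class enters, the ratio was 3.99 (2.51 to 6.62) for Serpina1e and 1.47 (1.40 to 1.54) for Serpina1c, but 0.819 (0.782 to 0.856) for Serpina1b and 0.764 (0.697 to 0.837) for Serpina1d.

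**Figure D2:**
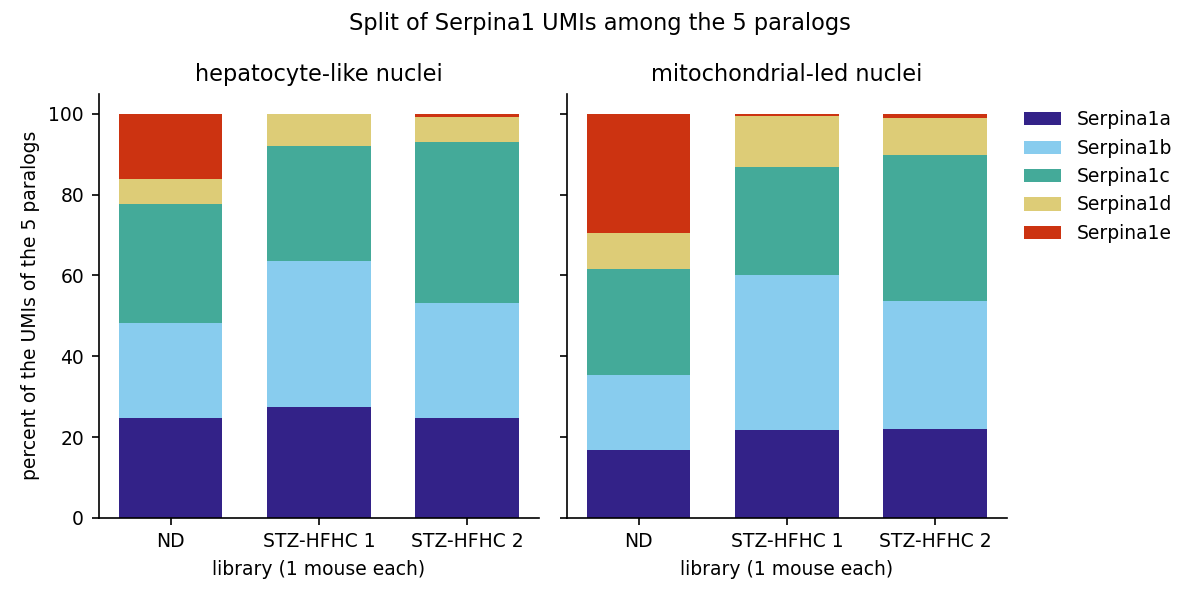
Stacked bars of the percent of all Serpina1 UMIs (y axis, 0 to 100%) that each of the 5 paralogs made up in each library, in hepatocyte-like nuclei (left) and mitochondrial-led nuclei (right). The Serpina1e part is 16.0% in ND on the left and 29.4% on the right, and 1.16% or less in both STZ-HFHC libraries.

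Counted over all kept nuclei, Serpina1e had 9461 UMIs in 4187 nuclei of ND, 22 UMIs in 17 nuclei of STZ-HFHC 1 and 110 UMIs in 92 nuclei of STZ-HFHC 2. The largest count in a single nucleus was 36, 5 and 6, respectively. In ND, 1777 nuclei had 2 or more UMIs, against 2 and 11 in STZ-HFHC. Over all barcodes before any filter, Serpina1e had 13572, 36 and 154 UMIs, so the difference was there before the filters. With each nucleus thinned to 1000 UMIs and shallower nuclei left out (587, 789 and 645), Serpina1e was seen in 18.9%, 0.0369% and 0.243% of nuclei of the 3 libraries. The shares without thinning were 49.3%, 0.191% and 0.842%. Any of the 5 members was seen in 60.01%, 20.6% and 21.0% of thinned nuclei.

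Serpina1e was low in STZ-HFHC in each of the 9 classes compared. In ND its level ran from 123 CPM in hepatocyte-like nuclei to 1061 CPM in nuclei led by mitochondrial genes. In STZ-HFHC its highest level was 10.6 CPM, and it was at 0 in 5 of 18 sums of a class in a library, all 5 in STZ-HFHC 1. At 0 UMIs, a count of 3 was taken as the highest that the depth allows. The ND level was then at least 169-fold higher in macrophage-like, 75.2-fold in monocyte-like, 33.1-fold in T or NK-like, 29.3-fold in cholangiocyte-like and 6.53-fold in B-like nuclei. In endothelial-like nuclei Serpina1e had 1063, 2 and 4 UMIs, and in stellate or fibroblast-like nuclei 1144, 1 and 9. The hepatocyte-like clusters gave the same picture, with 133 CPM in cluster 2 and 102 CPM in cluster 8 of ND, against 0.254 CPM and 2.34 CPM in cluster 1 of the STZ-HFHC mice. The unnamed STZ-HFHC cluster 4 held 2 and 9 UMIs of Serpina1e, at 0.309 and 0.71 CPM.

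**Figure D3:**
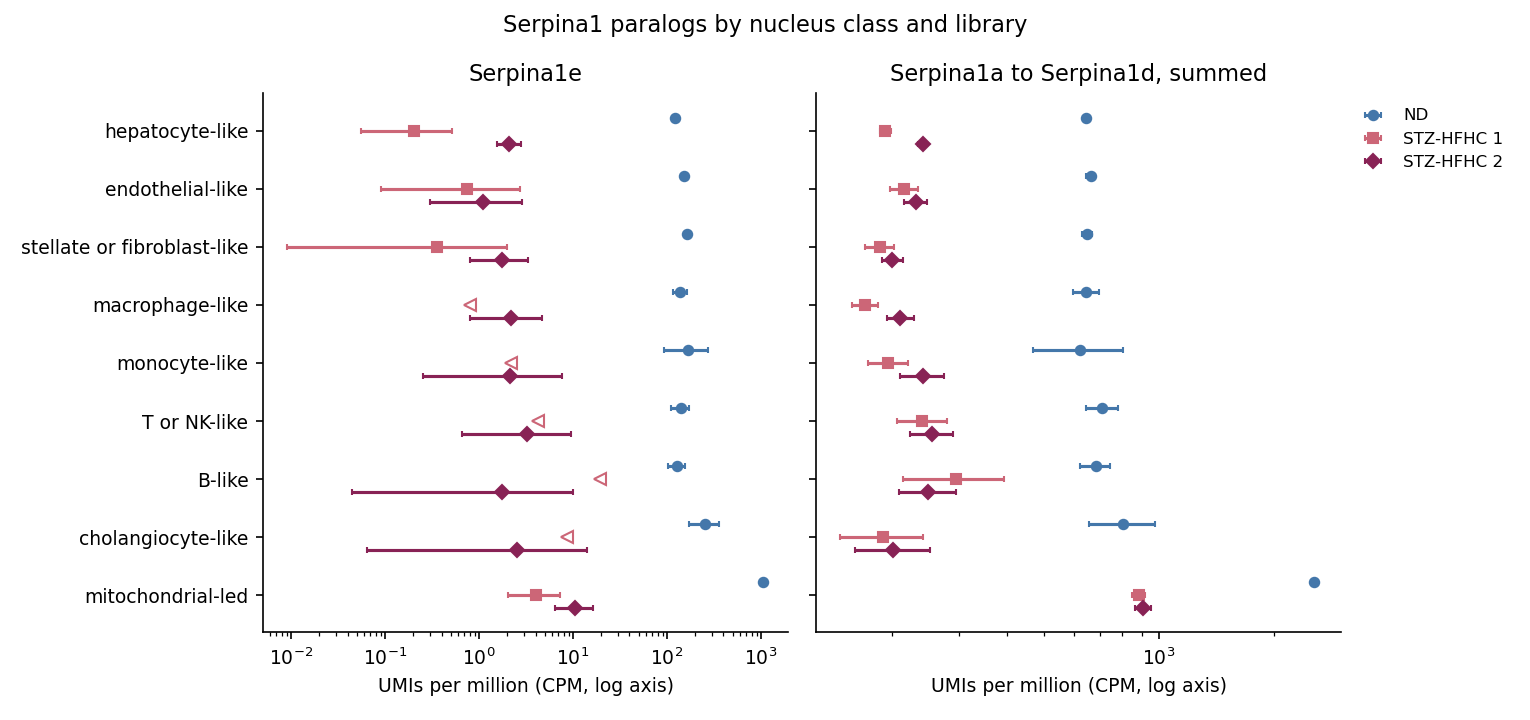
Level of Serpina1e (left) and of the other 4 paralogs summed (right) in 9 nucleus classes (y axis) of each library, in CPM of the class on a log axis, with 95% exact Poisson intervals. Open triangles mark 0 UMIs, drawn at the level of 3 counts. Each class shows the ND level above both STZ-HFHC levels, and the mitochondrial-led nuclei have the highest level of the other 4 paralogs. The open triangles follow the depth of a class, from 0.81 to 19.6 CPM, and are limits, not levels.

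The family was not particular to hepatocyte-like nuclei in any library. Endothelial cells, stellate cells and lymphocytes are not known to make alpha-1-antitrypsin in quantity, yet their nuclei carried it at the level of the hepatocyte-like nuclei. Over the 7 other named classes, the family's level relative to hepatocyte-like nuclei had a median of 1.06 in ND (range, 1.02 to 1.38), of 1.02 for STZ-HFHC 1 (0.883 to 1.53) and of 0.954 for STZ-HFHC 2 (0.832 to 1.06). The log2 ratio of hepatocyte-like to endothelial-like nuclei was -0.06 ± 0.12 (SD, n = 3 libraries), where the clusters behind both classes differed between ND and STZ-HFHC. Thinned to 1000 UMIs, 55.8% of hepatocyte-like and 57.9% of endothelial-like nuclei had a family UMI in ND, against 17.4% and 20.6% for STZ-HFHC 1 and 22.3% and 23.3% for STZ-HFHC 2. Unthinned, the shares were 93.3% and 94.3%, then 69.8% and 37.4%, then 73.8% and 44.6%. The median depths behind these pairs were 4090 and 5201 UMIs for ND, 7515.5 and 1766 for STZ-HFHC 1, and 6489 and 1921.5 for STZ-HFHC 2. The thinned share in hepatocyte-like nuclei was thus not above that in a class that should lack these genes. It is therefore not read as a measure of expression in hepatocytes. Free RNA as its source was not tested. Less RNA in hepatocytes and less free RNA in the suspension cannot be told apart here. The summed level of 10 hepatocyte markers was 16468 CPM in hepatocyte-like and 14502 CPM in endothelial-like nuclei of ND. It was 15086 and 9982 CPM for STZ-HFHC 1 and 19603 and 14148 CPM for STZ-HFHC 2. The same markers were used to name the hepatocyte-like class, so nothing is read from their higher sum there. Alb, 1 of the 10, was at 2454 and 2428 CPM in ND, 2611 and 1792 CPM for STZ-HFHC 1 and 2217 and 1579 CPM for STZ-HFHC 2.

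Each of the 5 members was higher in nuclei with a larger share of mitochondrial counts. Mitochondrial transcripts lie outside the nucleus, so this share is commonly read as a sign of cytoplasmic RNA. Among all kept nuclei of ND, Serpina1e was at 122 CPM in nuclei under 0.1% mitochondrial counts, 369 CPM at 0.1% to 0.5% and 1409 CPM at 0.5% to 5%. In STZ-HFHC 1 the same steps gave 0.259, 1.11 and 2.13 CPM, and in STZ-HFHC 2 they gave 1.67, 2.39 and 10.7 CPM, from 5 to 81 UMIs each. Serpina1e was lower in STZ-HFHC at each step, whatever the share of mitochondrial counts.

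The increase from the lowest to the highest step was not the same for each member. In ND it was 4.24-fold for Serpina1a, 4.84-fold for Serpina1b, 5.50-fold for Serpina1c, 9.02-fold for Serpina1d and 11.6-fold for Serpina1e. Serpina1d again had a larger increase than Serpina1a to Serpina1c in STZ-HFHC, at 7.76-fold and 7.22-fold, against 3.44-fold to 4.90-fold for the other 3. The Serpina1e share of the family's UMIs went from 16.4% through 24.4% to 30.4% in ND. For comparison, Apoa1, which encodes the main protein of high-density lipoprotein, increased 5.49-fold, 4.75-fold and 4.24-fold in the 3 libraries, while Cps1, the first enzyme of the urea cycle, was at 0.848, 0.659 and 0.804 of its level in the lowest step. Alb, encoding albumin, increased 4.29-fold in ND but 1.28-fold and 1.46-fold in STZ-HFHC.

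**Figure D4:**
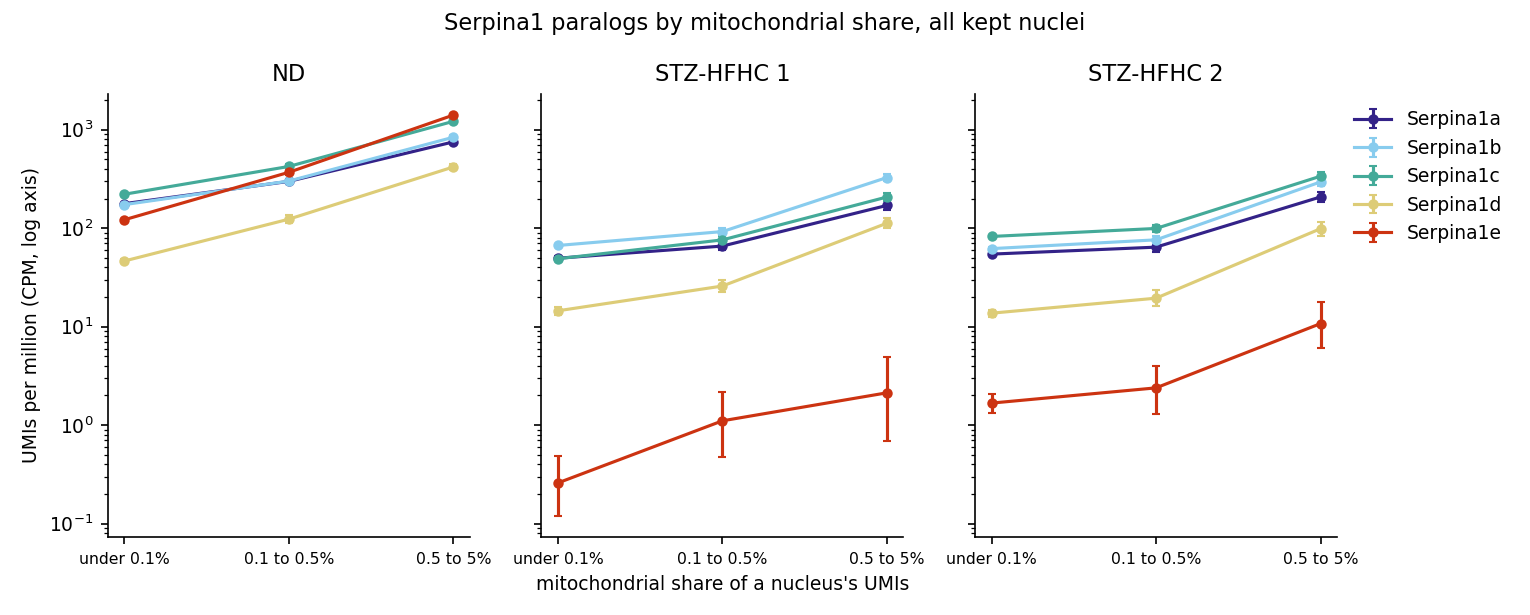
Level of each Serpina1 paralog (y axis, CPM, log axis, 95% exact Poisson intervals) in all kept nuclei of each library, grouped by the share of mitochondrial counts of a nucleus (x axis). Each member is highest at 0.5% to 5%, and in ND Serpina1e goes from 122 to 1409 CPM.

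The class led by mitochondrial genes held 873, 977 and 572 nuclei and had the highest family level, at 3602 CPM in ND and 887 and 918 CPM in STZ-HFHC. This was 4.71, 4.60 and 3.77 times the level of the hepatocyte-like nuclei. Its ND nuclei formed a cluster of their own, with Serpina1e and Serpina1d among its top 10 genes. The paralogs were left out of the clustering but were among the genes ranked for naming the clusters. These levels are a description. In this class Serpina1e had 4123, 11 and 20 UMIs and made up 29.4%, 0.458% and 1.16% of the family. Thinned to 1000 UMIs, 58.9% of its nuclei had a Serpina1e UMI in ND, against 0.145% and 1.05% in STZ-HFHC, or 86.8%, 0.614% and 2.62% unthinned.

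Along the liver lobule, hepatocytes near the portal vein and near the central vein do different work, and many secreted proteins are made mainly on the portal side. Hepatocyte-like nuclei were scored by periportal and pericentral markers, which did not include the members, and each library was cut into 3 groups of equal size. The family was at 845 CPM in the periportal and 693 CPM in the pericentral group of ND, a ratio of 1.22 (1.17 to 1.27). For STZ-HFHC 1 the levels were 252 and 144 CPM, a ratio of 1.75 (1.62 to 1.90). For STZ-HFHC 2 they were 290 and 192 CPM, a ratio of 1.51 (1.41 to 1.61). The periportal group was higher in each library, with a larger ratio in both STZ-HFHC mice. The cuts of the score lay at -1.24 and -0.32 in ND, -1.19 and -0.45 in STZ-HFHC 1 and -1.72 and -1.14 in STZ-HFHC 2. The groups thus hold unlike ranges of the score between libraries, which limits any comparison of the ratios between them.

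Serpina1c had a ratio of 2.71 (2.30 to 3.21) for STZ-HFHC 1 and 1.87 (1.68 to 2.10) for STZ-HFHC 2, against 1.19 (1.11 to 1.28) in ND. Serpina1b had 1.28 in ND and 1.64 and 1.33 in STZ-HFHC, and Serpina1d had 1.09, 1.499 and 1.57. In both STZ-HFHC mice Serpina1c thus had a higher ratio than Serpina1a, Serpina1b and Serpina1d, but in ND it did not. Serpina1a, at 1.203, 1.32 and 1.22, differed least between libraries. Serpina1e had a ratio of 1.25 (1.14 to 1.38) in ND and of 3.35 (1.34 to 9.98) in STZ-HFHC 2, the latter from 25 and 6 UMIs, and in STZ-HFHC 1 it had 2 and 0 UMIs. The score is a range and not a cell type, and 669 of 4385, 427 of 2320 and 636 of 3060 scored nuclei lay near a cut. For scale, the pericentral glutamine synthetase gene Glul had a ratio of 0.0238, 0.0343 and 0.0189, and Alb had 1.41, 1.60 and 1.58.

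Within 500 kb of a member, 53 other genes were annotated, 31 of them were in the count tables and 14 had at least 50 UMIs in hepatocyte-like nuclei. Of these 14, 2 passed the rule of a log2 ratio of -1 or lower in both STZ-HFHC mice, none passed in the other direction, and the median was -0.21, against 0.09 over all genes tested and the 4.79% called lower among them. Serpina11, a serpin on the side of Serpina1e, was at 9.67 CPM in ND and 3.69 and 3.75 CPM in STZ-HFHC. B430119L08Rik, antisense within Serpina1c, had 102, 1 and 30 UMIs, with a ratio to ND of 0.0109 (0.000272 to 0.0618) and 0.284 (0.182 to 0.43). Serpina10, which encodes the protein Z-dependent inhibitor of coagulation, was at 45.4, 62.3 and 54.2 CPM, and Serpina6, which encodes the corticosteroid-binding globulin, at 5.20, 5.71 and 4.63 CPM. Neither passed the rule. Serpina3k, a relative of human alpha-1-antichymotrypsin, was at 289, 83.5 and 161 CPM and passed in STZ-HFHC 1 alone, with log2 ratios of -1.79 and -0.84. Serpina12, Serpina3m and Serpina3n did not pass. Serpina3k lies wholly inside the gene model of Serpina3m on the same strand, so the separate values of these genes are uncertain.

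**Figure D5:**
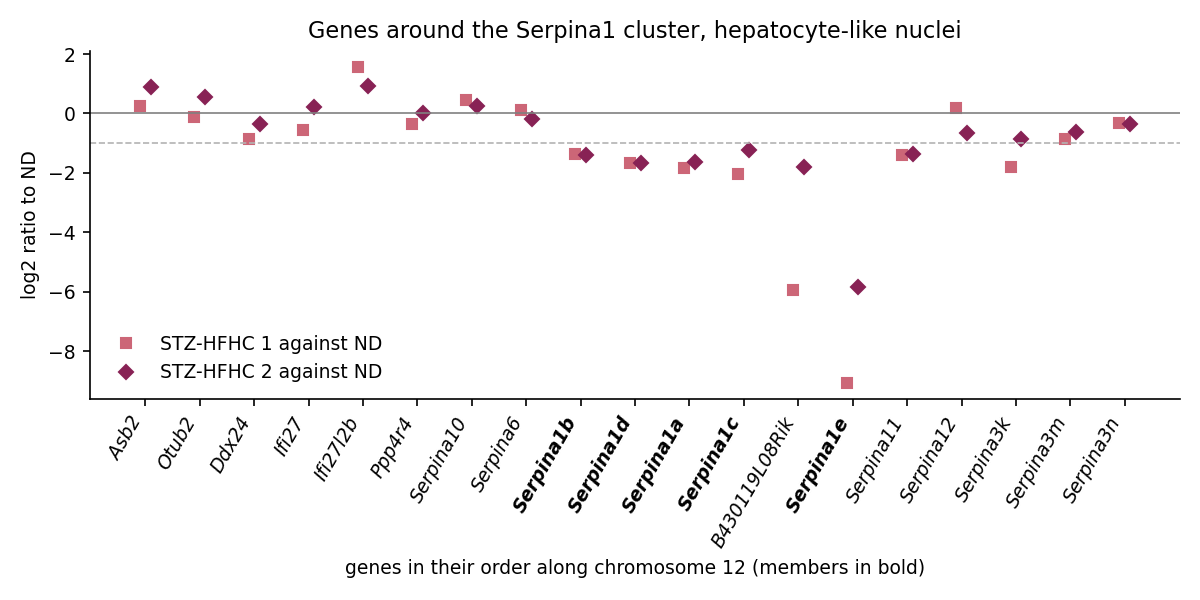
Log2 ratio to ND of each STZ-HFHC mouse in hepatocyte-like nuclei (y axis) for the 5 Serpina1 paralogs (bold) and the 14 other genes within 500 kb that had at least 50 UMIs, in their order along chromosome 12. The dashed line marks a log2 ratio of -1, and Serpina1e lies at -9.08 and -5.84; the point of B430119L08Rik for STZ-HFHC 1 rests on 1 UMI.

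For the lists that follow, the shares over all genes tested were 4.79% lower and 8.13% higher, with a median log2 ratio of 0.09, and a list's share near these is no result about the list. Of 12 transcription factors known to act on SERPINA1 or on liver genes at large, 2 were lower, 0 higher and 10 neither, with a median log2 ratio of -0.07, beside 4.79% and 8.13% over all genes. Cebpd, an acute-phase factor, was at 20.2, 6.72 and 9.25 CPM in ND and the STZ-HFHC mice. Foxa3, a liver factor that opens chromatin, was at 132, 59.96 and 49.2 CPM. Hnf4a, a master factor of hepatocytes, was at 372, 311 and 388 CPM and did not pass the rule. Onecut1 and Cebpb had the highest mean ratios of the list, with log2 ratios of 0.58 and 0.27 for Onecut1 and 0.76 and 0.12 for Cebpb.

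Genes of growth hormone signalling, the pathway that sets sex-biased expression in the mouse liver, gave 0 lower and 0 higher of 14, with a median of -0.05, beside 4.79% and 8.13% over all genes. The receptor gene Ghr was at 5649, 3179 and 4782 CPM and the transcription factor gene Stat5b at 325, 289 and 276 CPM. Of 2 feedback inhibitors of the pathway, Socs2 was at 9.45, 7.43 and 3.17 CPM and Cish at 2.78, 11.1 and 3.26 CPM. Prlr, the prolactin receptor gene, was at 398, 348 and 133 CPM and Cux2, a factor of the female liver, at 2.83, 19.8 and 1.54 CPM.

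Genes known to be higher in the male liver gave 4 lower and 0 higher of 10, with a median of -1.32, beside 4.79% lower and 8.13% higher over all genes. Elovl3, which elongates fatty acids, was at 183, 2.02 and 9.74 CPM, and Cyp2d9, a steroid hydroxylase, at 289, 53.9 and 78.8 CPM. Gstp1 and the complement gene C6 also passed, whereas Mup20 and Selenbp2 had the highest ratios of the list and did not. Of 12 listed genes known to be higher in the female liver, 6 reached 50 UMIs, and 5 of these had 0 to 12 UMIs in ND, so that they reached the limit through the STZ-HFHC libraries in which they were high. No count or median is therefore read for this list. Cyp2b9 had 12, 9482 and 7298 UMIs and Cyp2a4 had 0, 961 and 221, both of the cytochrome P450 family. Sult2a1, a sulfotransferase gene with 0, 53 and 5 UMIs, and Cux2, which did not pass, had the lowest ratios.

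Genes for the folding, export and disposal of alpha-1-antitrypsin gave 0 lower and 1 higher of 18, with a median of 0.31, a share of higher genes near the 8.13% over all genes. The 1 that passed was Dnajb9, a chaperone gene of the endoplasmic reticulum, at 7.39, 15.9 and 19.0 CPM. Lman1, the cargo receptor that carries alpha-1-antitrypsin out of the endoplasmic reticulum, was at 73.1, 87.6 and 96.5 CPM, and Hspa5, the chaperone BiP, at 94.9, 105 and 192 CPM. Uggt1, which checks glycoprotein folding, was at 57.2, 83.6 and 100.2 CPM. Sar1b and Sec23a, of the vesicle coat that leaves the endoplasmic reticulum, had the lowest ratios, with Sar1b at 175, 89.6 and 93.7 CPM.

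Of 10 listed genes of proteases that alpha-1-antitrypsin can inhibit and of neutrophil granules, 4 had enough UMIs in hepatocyte-like nuclei, beside 8.13% higher over all genes. The 1 that was higher, St14, matriptase, had 2, 42 and 13 UMIs and reached the limit only through the STZ-HFHC libraries, so no count or median is read. Tmprss2 had the other high ratio, at 6.53, 13.8 and 7.45 CPM, and Cela1 and Tmprss6 had the lowest, with Tmprss6, which controls hepcidin, at 140, 85.4 and 124 CPM. Elane, the gene of neutrophil elastase, had 1, 0 and 1 UMIs and was under the limit.

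Genes of other proteins that hepatocytes secrete gave 9 lower and 3 higher of 33, beside 4.79% lower and 8.13% higher over all genes. The median was -0.67. Apoa1 was at 509, 129 and 128 CPM, and Apoa2, of the same lipoprotein, at 665, 226 and 159 CPM. The log2 ratios of Apoa1, at -1.98 and -1.99, were of the order of those of Serpina1a, at -1.83 and -1.64, and no gene of the list was lower by a log2 ratio of 2 in both mice. The 3 higher genes were Orm3 at 0.867, 7.27 and 10.4 CPM, Saa2 at 0.228, 4.19 and 2.60 CPM and Saa1 at 1.10, 9.40 and 5.29 CPM. All 3 are acute-phase genes that were low in ND. Most of their UMIs came from the STZ-HFHC libraries in which they were high, so nothing is read from the count of higher genes. Alb did not pass, at 2454, 2611 and 2217 CPM. Of the 7 neighbouring serpin genes tested besides the members, 1 was lower, Serpina11, with a median of -0.33.

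Over 27 sums of a class in a library, the genes whose log2(CPM + 1) followed Serpina1e most closely were Bhmt (Pearson r = 0.977), Elovl3 (0.965), Clpx (0.963), Sult2a8 (0.958) and Crot (0.952). The points share 3 libraries, their depth and the difference between groups, and genes are not independent replicates, so r is given as a description. Bhmt, which turns homocysteine back to methionine, was at 5285, 155 and 290 CPM in hepatocyte-like nuclei and Sult2a8, a sulfotransferase gene, at 1432, 112 and 214 CPM. The family sum was followed most closely by Apoa1 (0.982), Mup3 (0.975), Serpina3k (0.970), Fgb (0.966) and Vtn (0.959), which all encode secreted proteins. Between pairs of members, r ran from 0.724 for Serpina1d and Serpina1e to 0.954 for Serpina1b and Serpina1d, the latter being the overlapping pair.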

How the data were processed

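Single nuclei were isolated from frozen liver of 1 ND and 2 STZ-HFHC mice, and libraries were made with a 3′ droplet kit. The authors deposited raw UMI counts per gene and barcode, made per the labels with Cell Ranger 7.0.1 against mm10, neither normalized nor corrected for free RNA. Whether intronic reads were counted and which annotation was used were not given in the sources used here. The study's methods state 30989 cells after filtering, which equals the barcodes in these files; the limits stated there (200 to 5000 genes, at most 5% mitochondrial counts) left 28336.

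From these counts, genes in at least 3 nuclei were scaled to 10000 per nucleus, log-transformed, reduced to 30 components of 2000 variable genes and clustered into 23 clusters (15 neighbours, Leiden resolution 1) with Python 3.11.15, Scanpy 1.11.5, leidenalg 0.10.2 and SciPy 1.17.1. Clusters were named by the marker list that was raised most fully (2-fold, in at least 5% of nuclei, at least 3 markers and 33.3% of the list) and stayed unnamed if lists mixed or another class led the top 10 genes. Clusters with at least 3 mitochondrial genes among the top 10 were called mitochondrial-led. Where markers were too few, hepatocyte-like was given by 3 markers at 1.2-fold over other named clusters of the library, or by 3 zone markers. This naming rule was revised after clusters were seen. Scrublet's automatic threshold called 0, 1 and 0 doublets and did not work, so nuclei were kept, and an alternative left out the highest 8% of scores (698, 756 and 942 nuclei).

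Levels were given for classes of at least 20 nuclei, log2 ratios with 0.5 added to each count, and intervals at 95% (exact Poisson for levels, conditional binomial for ratios, Clopper-Pearson for shares). With 1 ND mouse no test was run, and a rule of size (at least 50 UMIs, log2 ratio of 1 in both mice) took its place. The methods were tested on simulated data. Likeness added 1 to CPM.

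The members and the gene lists were chosen with earlier results of these data known. Named were the 5 members, genes within 500 kb, the 2 highest and 2 lowest ratios of each list, genes with an explained role, and the 5 genes most like Serpina1e and the family. Other genes, such as Pitx3, Gstp1, C6 and Saa1, were named after their values were seen. Of the gene identifiers, 99.6% were found in GENCODE M21. Protein sequences and a genome were not used here, and some genes of the list of transcription factors are not reported here. Alternatives changed the barcode filter, doublets, clustering, naming, scaling, added count, minimum, size limit and mice.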

Additional observations from a re-analysis of the deposited data

Results flagged for a closer look

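The family's log2 ratio of hepatocyte-like to cholangiocyte-like nuclei was negative in ND (-0.47) and positive in both STZ-HFHC mice (0.02 and 0.24), so that the mean of STZ-HFHC minus ND was 0.60, from 134, 66 and 80 UMIs in the cholangiocyte-like nuclei. The same ratio to macrophage-like nuclei was -0.03 in ND and 0.18 and 0.19 in STZ-HFHC, a difference of 0.21. To stellate or fibroblast-like nuclei it was -0.08 in ND and 0.05 and 0.26 in STZ-HFHC, a difference of 0.24. The stellate or fibroblast-like nuclei were mostly cluster 13 in ND and cluster 3 in STZ-HFHC, and the macrophage-like nuclei mostly cluster 20 in ND and cluster 5 in STZ-HFHC, so that each class was made of different clusters in the 2 groups. These were set apart because each STZ-HFHC mouse lay on the other side of 0 from the ND mouse. With 1 ND mouse, the difference was not tested.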

How the results depend on the processing

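No paired analysis was possible because the ND group held 1 mouse and the replicate numbers of the groups mark no shared animal. Serpina1e kept its direction under 11 of 11 alternatives. It was chosen for its difference in these same libraries, so this count is no check of that difference. Leaving out either STZ-HFHC mouse gave log2 ratios of -9.08 to -5.84 for Serpina1e. For the family this range was -1.99 to -1.65 and for the Serpina1e share in STZ-HFHC 0.105% to 0.869%. With at least 5 mitochondrial genes required for the mitochondrial-led class, chosen after seeing the data, the family's log2 ratio was -2.45, the ND share of Serpina1e 22.1% and the family's log2 ratio of hepatocyte-like to endothelial-like nuclei 0.15. Over all nuclei in place of the hepatocyte-like, the first 2 of these were -2.17 and 21.2%. Genes past the rule of size were 1839 (682 lower, 1157 higher), 2293 (891 and 1402) without STZ-HFHC replicate 1, 3473 (1620 and 1853) without replicate 2, 4747 (1872 and 2875) with no minimum beyond 1 UMI, and 431 (92 and 339) at a log2 ratio of 2, where 1 member was left. Of the values given here, the hepatocyte-like to endothelial-like ratio changed sign, from -0.06. At Leiden resolution 0.5 that ratio could not be given, as a library held too few endothelial-like nuclei. The Serpina1e value of STZ-HFHC 1 rests on 4 UMIs, which sets the width of its interval.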
